A study of Homo sapiens with 6 samples.

Results

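The 9 genes described here encode the machinery that presents peptides on class I molecules of the major histocompatibility complex. They are the heavy chains HLA-B, HLA-C and HLA-E, the light chain B2M, the peptide transporter subunits TAP1 and TAP2, the loading factor TAPBP (tapasin), the peptidase ERAP1 and the transactivator NLRC5. They were taken by symbol from a table of 42656 genes. All 9 passed the filter on low counts, which left 15679 genes for testing. The members were chosen with earlier results of these data known.

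Class I molecules display peptides from inside the cell to CD8 T cells. The proteasome cuts proteins into peptides, TAP1 and TAP2 carry them into the endoplasmic reticulum, ERAP1 trims them, and tapasin holds an empty heavy chain with B2M at the transporter until a peptide binds. NLRC5 and interferon-regulated factors drive transcription of several of these genes. HLA-E mainly shows peptides cut from the leader sequences of other class I chains, and is read by NKG2A on natural killer cells.

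RNA was measured by sequencing in TOV21G, an established line from an ovarian clear cell carcinoma. The shMEX3A arm carried a lentiviral hairpin that lowers MEX3A, which binds RNA through KH domains and has a RING domain. The shCtrl arm, whose genotype the labels give as WT, carried a scrambled hairpin. Each arm had 3 libraries and 1 hairpin. Cells of both arms took up lentivirus at an MOI (infectious units offered per cell) of 50, grew with 15% serum, and were harvested on day 3. Whether the replicates were grown apart is not stated in the labels, so the p-values cover only the spread among these libraries, which may be technical.

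Library totals ran from 34662635 to 48228216 counts. Levels below are TMM-scaled counts in CPM, and changes are log2 fold changes of shMEX3A over shCtrl with their standard error (SE) from edgeR's quasi-likelihood test, called at a Benjamini-Hochberg adjusted p under 0.05 over all tested genes. Most of the transcriptome differed between the arms: 69.7% of tested genes were called, 34.0% higher and 35.6% lower in shMEX3A, and the median log2 fold change was -0.01. MEX3A itself averaged 20.9 ± 1.31 CPM in shMEX3A and 69.0 ± 1.54 CPM in shCtrl (SD, n = 3 each, as for all means below), a log2 fold change of -1.72 (SE 0.046, adjusted p = 1.52e-28). Of 16 leukocyte markers, 13 stayed under 1 CPM in every library and 6 had no count at all, among them CD3E and TYROBP. Their summed level was 13.3 to 13.8 CPM in shMEX3A and 9.51 to 10.2 CPM in shCtrl. Of 10 fibroblast markers 7 stayed under 1 CPM, and the sum, carried by COL1A1 and COL1A2, was 1249 to 1284 CPM in shMEX3A and 584 to 597 CPM in shCtrl. The part of either list in the results below was not tested. The carcinoma markers PAX8, KRT8 and KRT18 were well expressed, while NAPSA stayed under 1 CPM and EPCAM under 6 CPM in all libraries. In bulk RNA a change in the number of cells of a kind and in RNA per cell cannot be told apart.

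The promoters of HLA-B and HLA-C are shown beside those of B2M, TAP1 and TAPBP, because the members changed by unlike amounts and the elements known to control class I genes can be read directly in them. Each is the 250 bases before the gene's RefSeq start, 5′ to 3′ on the gene's own strand, on GRCh38.p14. The GENCODE annotation used below for gene positions places these starts elsewhere. Its spans of TAP1 (up to 32853978) and TAPBP (up to 33314387) hold the whole window shown for these genes. The table held a promoter for 7 of the 9 members, all but HLA-E and NLRC5. TAP1 had a second start, not shown, whose window held no match to the motifs below. Capitals mark matches on either strand to GGGGATTC (the start of the NF-kB element), GAAANNGAA (9 bases of the interferon-stimulated response element), GAANNGAAA (the form of that element in heavy chain promoters), TGACG (in the X box) and CCAAT (the Y box, bound by NF-Y). The regions are chr6:31357180-31357429 (HLA-B, minus strand), chr6:31272093-31272342 (HLA-C, minus), chr15:44711267-44711516 (B2M, plus), chr6:32853705-32853954 (TAP1, minus) and chr6:33314079-33314328 (TAPBP, minus).
HLA-B: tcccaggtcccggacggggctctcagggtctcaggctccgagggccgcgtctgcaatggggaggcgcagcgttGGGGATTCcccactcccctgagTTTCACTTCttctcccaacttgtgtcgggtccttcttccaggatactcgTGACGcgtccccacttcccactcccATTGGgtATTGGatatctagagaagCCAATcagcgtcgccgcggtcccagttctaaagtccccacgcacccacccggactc
HLA-C: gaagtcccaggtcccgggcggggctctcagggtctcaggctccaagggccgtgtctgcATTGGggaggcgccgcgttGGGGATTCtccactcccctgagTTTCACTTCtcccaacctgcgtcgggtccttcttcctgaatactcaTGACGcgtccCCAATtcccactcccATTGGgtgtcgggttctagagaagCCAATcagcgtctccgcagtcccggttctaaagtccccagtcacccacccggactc
B2M: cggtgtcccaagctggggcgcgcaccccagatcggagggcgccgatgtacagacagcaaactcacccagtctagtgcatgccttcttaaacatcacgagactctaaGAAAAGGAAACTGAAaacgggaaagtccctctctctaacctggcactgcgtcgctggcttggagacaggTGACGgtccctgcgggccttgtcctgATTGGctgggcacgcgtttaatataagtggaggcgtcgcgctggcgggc
TAP1: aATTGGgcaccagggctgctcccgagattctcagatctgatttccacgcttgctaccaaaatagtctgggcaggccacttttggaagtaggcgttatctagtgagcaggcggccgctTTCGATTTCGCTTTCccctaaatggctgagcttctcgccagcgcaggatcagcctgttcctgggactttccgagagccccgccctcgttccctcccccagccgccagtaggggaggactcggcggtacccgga
TAPBP: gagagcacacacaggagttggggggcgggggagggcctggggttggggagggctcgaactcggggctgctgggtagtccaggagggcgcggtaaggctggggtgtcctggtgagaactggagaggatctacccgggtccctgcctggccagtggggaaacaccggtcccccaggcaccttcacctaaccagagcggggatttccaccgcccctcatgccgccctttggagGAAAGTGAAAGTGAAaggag

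Both heavy chain promoters held GGGGATTC, GAANNGAAA and TGACG in the same order towards the gene start, with the NF-kB element 177 bases before the start in HLA-B and 173 bases before it in HLA-C. CCAAT occurred 3 times in HLA-B and 4 times in HLA-C. The B2M promoter held a pair of overlapping GAAANNGAA matches, 144 and 138 bases before its start, and further down TGACG and an inverted CCAAT. TAP1 held an overlapping GAAANNGAA pair at 133 and 127 bases on the other strand. TAPBP held the same pair at 20 and 14 bases before its RefSeq start and no match to the other 4 motifs in that window. As this exact string, GGGGATTC was found in no other member's promoter in the table. Other forms of the NF-kB element were not searched for, so a missing match does not show that the element is absent. GAANNGAAA was not confined to the heavy chains. It also matched 63 bases before the start of TAP2, overlapping a GAAANNGAA match, and 180 bases before a second start of ERAP1, neither shown. Among 27305 promoters, 1 per gene, GGGGATTC was found in 0.765%, GAAANNGAA in 7.06%, GAANNGAAA in 6.77%, TGACG in 21.7% and CCAAT in 33.0%. A match describes the letters in this window and says nothing of binding.

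All 9 members were called, 8 higher and 1 lower in shMEX3A, against 69.7% of all tested genes called and 34.0% called higher. The 2 arms did not overlap in CPM for any of the 9, as was so for 72.3% of tested genes. The median log2 fold change of the members was 0.31. Of the 9 changes 7 were small, between 1.18-fold and 1.29-fold up or 1.24-fold down, and NLRC5 and TAPBP stood outside that band at 1.51-fold and 3.29-fold.

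**Figure D1:**
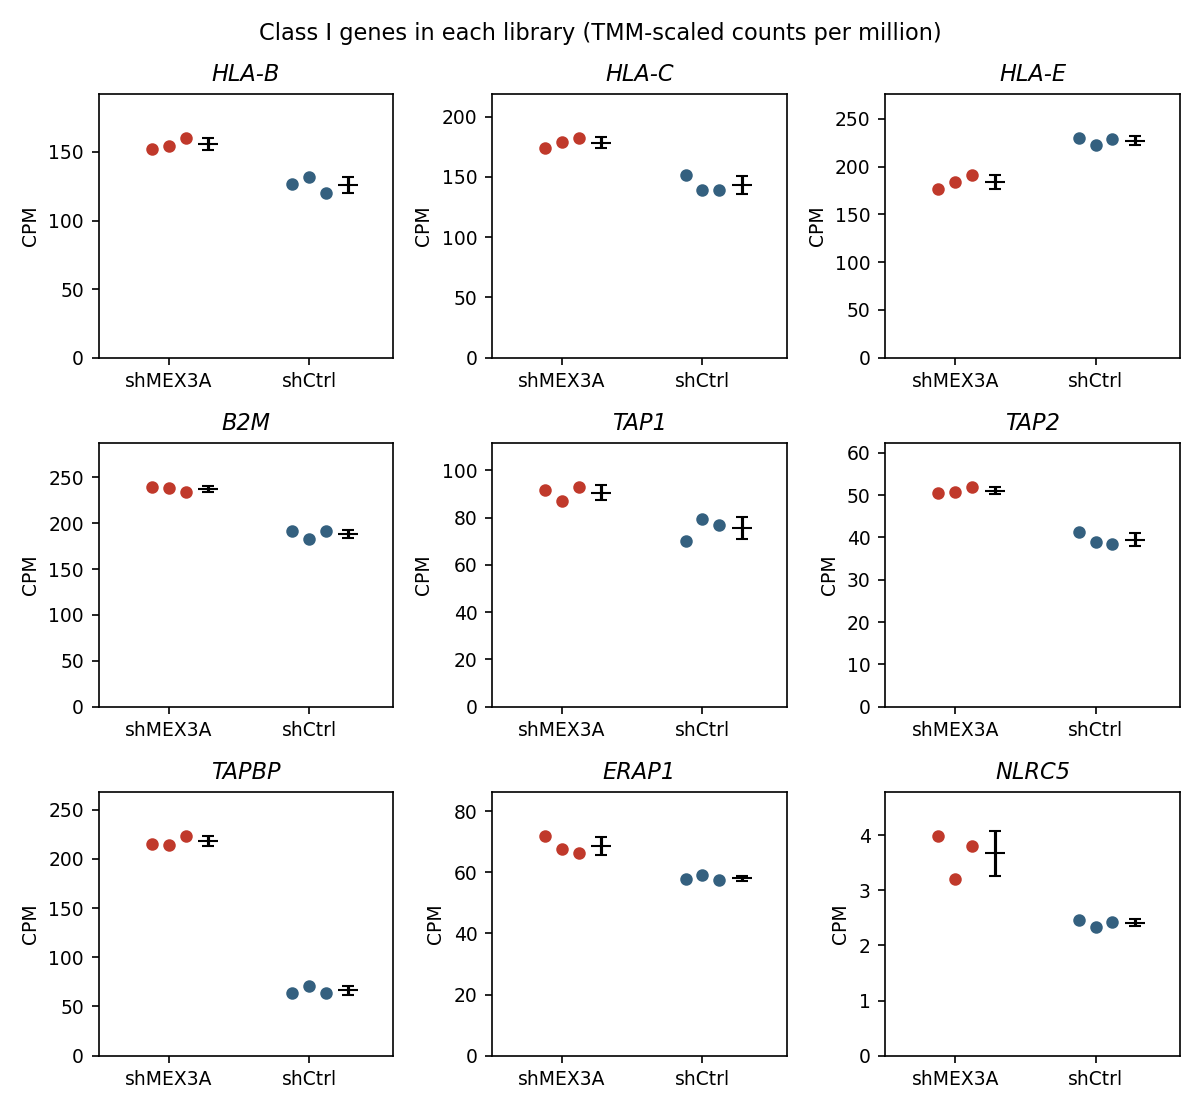
Level of each class I gene (CPM, y axis from 0) in the 3 shMEX3A libraries (red) and the 3 shCtrl libraries (blue), with the mean and SD in black beside each group. The shMEX3A points lie above the shCtrl points for 8 genes and below them for HLA-E, and TAPBP has the widest gap, 214 to 224 CPM in shMEX3A against 63.6 to 71.2 CPM in shCtrl.

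Among the heavy chains, HLA-B and HLA-C rose and HLA-E fell. HLA-B, which presents peptides to CD8 T cells, had 152, 154 and 161 CPM in shMEX3A, against 127, 132 and 120 CPM in shCtrl. Its log2 fold change was 0.30 (SE 0.035, adjusted p = 8.58e-10). HLA-C, which presents peptides and is also the main ligand of killer cell immunoglobulin-like receptors, had 174, 179 and 183 CPM in shMEX3A, against 152, 139 and 139 CPM in shCtrl. Its change was 0.31 (SE 0.035, adjusted p = 3.65e-10), and the lowest shMEX3A library lay well above the highest shCtrl library for both genes. HLA-E had 177, 183 and 191 CPM in shMEX3A, against 230, 222 and 229 CPM in shCtrl, a change of -0.31 (SE 0.032, adjusted p = 8.75e-11). All 3 shMEX3A libraries were thus low for HLA-E, by about as much in log2 as the other heavy chains were high. In the GENCODE 29 annotation, the span of HLA-B (chromosome 6, 31269491 to 31357188) reaches into HLA-C. Of its 3051 exon bases, 542 lie under an unprocessed pseudogene and 35 under exons of HLA-C. The cells' own HLA alleles were not examined here, and reads shared between class I genes, or lost where an allele departs from the GRCh38 sequence, leave the levels of these genes uncertain.

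B2M, the light chain that every class I heavy chain needs to fold, also rose. It had 240, 238 and 234 CPM in shMEX3A, against 191, 183 and 191 CPM in shCtrl (log2 fold change 0.33, SE 0.031, adjusted p = 2.82e-12). B2M occupies positions 44711487 to 44718877 of chromosome 15, plus strand (GRCh38, GENCODE 29), with no exon base under another gene. Its transcripts had a median GC content of 39.6%, the lowest of the 9, where the others ran from 48.2% to 63.1%. With offsets for GC content and transcript length its change was 0.62 and still called.

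The transporter subunits rose together. TAP1 had 91.6, 87.0 and 93.1 CPM in shMEX3A, against 70.3, 79.3 and 76.7 CPM in shCtrl, a log2 fold change of 0.26 (SE 0.041, adjusted p = 7.72e-07). TAP2, which pairs with it, had 50.5, 50.7 and 52.0 CPM in shMEX3A, against 41.2, 38.9 and 38.4 CPM in shCtrl, a change of 0.37 (SE 0.042, adjusted p = 7.41e-10). The gap between the arms, relative to the level, was narrowest for TAP1, where shCtrl replicate 2 came closest to shMEX3A. With GC and length offsets the change of TAP1 was 0.16 and still called. Exons of other genes cover 9.49% of the exon bases of TAP1 and 32.3% of those of TAP2.

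TAPBP had the largest rise of the 9 genes. It had 216, 214 and 224 CPM in shMEX3A, against 63.6, 71.2 and 64.1 CPM in shCtrl, a 3.29-fold rise (log2 fold change 1.72, SE 0.038, adjusted p = 1.34e-28). Tapasin bridges the empty heavy chain to the transporter and edits which peptides stay bound. Only 3.09% of tested genes had a larger change in either direction, and 6.95% were called at least 2-fold higher. TAPBP occupies positions 33299694 to 33314387 of chromosome 6, minus strand, with no exon base under another gene in GENCODE 29. Under all alternatives the change lay between 1.498, with GC and length offsets, and 1.77.

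ERAP1, the peptidase that trims peptides from their amino end, rose by 0.24 (SE 0.039, adjusted p = 9.29e-07). It had 72.0, 67.5 and 66.2 CPM in shMEX3A, against 57.7, 59.0 and 57.6 CPM in shCtrl. NLRC5, the transactivator of class I genes, was weakly expressed, with 165, 151 and 129 counts in shMEX3A and 108, 83 and 97 counts in shCtrl. This corresponds to 3.995, 3.21 and 3.81 CPM in shMEX3A, against 2.47, 2.34 and 2.42 CPM in shCtrl. Its change was 0.60 (SE 0.136, adjusted p = 0.000187), and its SE was the widest of the 9.

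Per kilobase of the longest coding transcript in GENCODE 29, B2M stood highest and NLRC5 lowest in both arms, at 139 ± 1.86 and 0.538 ± 0.060 CPM per kilobase in shMEX3A, against 110 ± 2.85 and 0.353 ± 0.010 CPM per kilobase in shCtrl. In shMEX3A the order after B2M was HLA-C (115), HLA-B (101), HLA-E (70.7), TAPBP (58.0), TAP1 (30.6), ERAP1 (12.5) and TAP2 (8.99 CPM per kilobase). In shCtrl it was HLA-C (92.3), HLA-E (87.3), HLA-B (81.4), TAP1 (25.5), TAPBP (17.6), ERAP1 (10.6) and TAP2 (6.95 CPM per kilobase). HLA-B and HLA-E, and likewise TAPBP and TAP1, thus stood in the opposite order in the 2 arms. The libraries of neighbours in the order did not overlap in either arm, but the lowest library of HLA-C in shCtrl (89.5) was close to the highest of HLA-E (88.6), as was the lowest of HLA-E (85.4) to the highest of HLA-B (85.1). These levels rest on the transcript length assumed for each gene.

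Ratios within a library do not depend on how libraries are scaled, and 10 were compared, with the SE from the spread of the libraries. HLA-B over B2M was 0.635, 0.646 and 0.686 in shMEX3A, against 0.663, 0.721 and 0.626 in shCtrl, a difference in log2 ratio of -0.03 (SE 0.068). HLA-C over B2M differed by -0.02 (SE 0.048), TAP1 over B2M by -0.07 (SE 0.078), TAP2 over B2M by 0.04 (SE 0.040), TAP1 over TAP2 by -0.11 (SE 0.084) and HLA-B over HLA-C by -0.01 (SE 0.056). In these 6 ratios the arms overlapped. Such ratios still depend on how the GC content and length of the genes are treated. As differences of log2 fold changes fitted with GC and length offsets, the values were -0.37 for HLA-B, -0.38 for HLA-C, -0.46 for TAP1 and -0.27 for TAP2 over B2M, -0.20 for TAP1 over TAP2 and 0.01 for HLA-B over HLA-C. The sign of TAP2 over B2M and of HLA-B over HLA-C thus turned, and the others moved further below 0.

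The other 4 ratios did not overlap between the arms. HLA-E over B2M was 0.736, 0.769 and 0.817 in shMEX3A, against 1.207, 1.216 and 1.196 in shCtrl (log2 difference -0.64, SE 0.044). TAPBP over B2M was 0.898, 0.900 and 0.957 in shMEX3A, against 0.333, 0.390 and 0.335 in shCtrl (log2 difference 1.38, SE 0.080). NLRC5 over B2M differed by 0.27 (SE 0.098) and ERAP1 over B2M by -0.10 (SE 0.043). The difference under those offsets was -0.94 for HLA-E, 0.88 for TAPBP, -0.38 for ERAP1 and, with its sign turned, -0.22 for NLRC5. Without offsets, each of these 4 had p = 0.1 in a two-sided exact permutation test, the smallest that 3 libraries against 3 can give, and an adjusted p of 0.25 over the 10 ratios; the values with offsets were not tested. A p under 0.05 was therefore out of reach for any ratio.

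**Figure D2:**
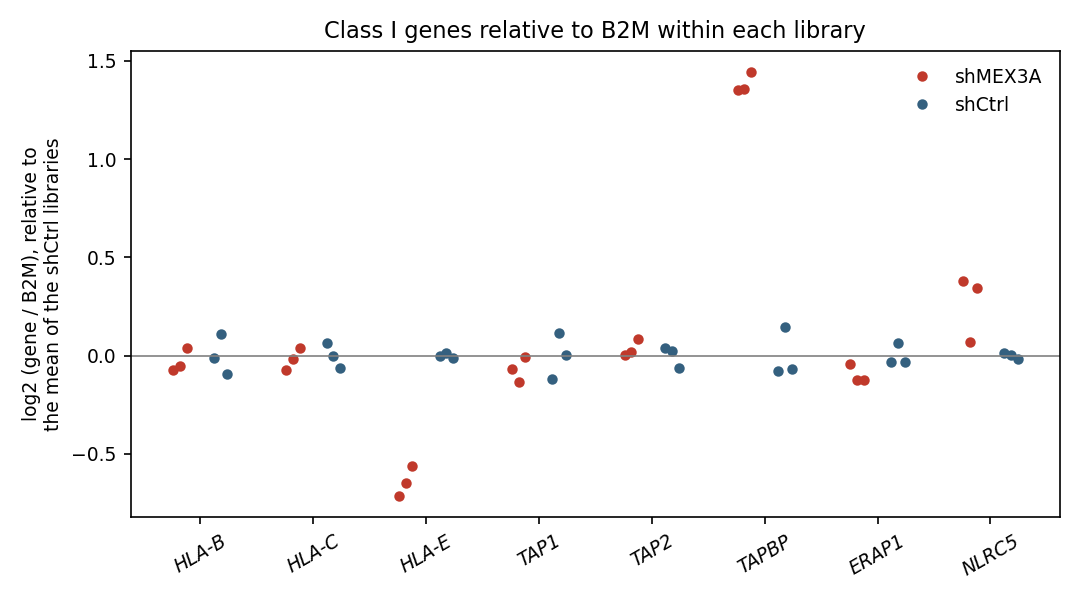
Log2 ratio of each class I gene to B2M within each library, relative to the mean of the shCtrl libraries (line at 0), in shMEX3A (red, left of each pair) and shCtrl (blue, right). HLA-B, HLA-C, TAP1 and TAP2 overlap between the arms, whereas the shMEX3A libraries lie about 0.64 lower for HLA-E and 1.38 higher for TAPBP.

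The wider pathway was described from 7 lists of 96 genes, chosen like the members with earlier results known. Of 85 that passed the low-count filter, 45 rose, 21 fell and 19 were not called, with a median log2 fold change of 0.15. All tested genes had 34.0% higher and 35.6% lower.

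Of 13 other class I and class I-like chains 10 were tested, with 5 higher and 4 lower (median 0.13). HFE, a class I-like regulator of iron uptake, rose by 0.73 in log2 fold change (SE 0.062). The stress ligands of the NKG2D receptor did not move one way. ULBP2 rose by 0.96 (SE 0.154), while ULBP1 changed by -1.23 (SE 0.131) and ULBP3 by -0.66 (SE 0.072). FCGRT, the neonatal Fc receptor, which also pairs with B2M, changed by -0.20 (SE 0.044). MICA, chosen after its value was seen, was not called (0.05, adjusted p = 0.280, edgeR).

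Of 9 folding and loading partners 6 rose and 1 fell (median 0.25). The rises with the smallest p were in GANAB, which trims glucose from new glycoproteins (0.51, SE 0.031), the chaperone HSPA5 (0.50, SE 0.029) and the folding sensor UGGT1 (0.34, SE 0.031). The one that fell was CANX, calnexin, which binds new heavy chains before B2M does, with 766 ± 15.0 CPM in shMEX3A and 1001 ± 26.4 CPM in shCtrl (-0.39, SE 0.030). TAPBPL, the tapasin-related editor, had 8.58 ± 0.965 CPM in shMEX3A and 8.58 ± 0.845 CPM in shCtrl and was not called. It is named outside the rule, after its value was seen.

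Of 12 peptide supply genes 5 rose, 3 fell and 4 were not called (median 0.03). PSMB9, an immunoproteasome subunit whose gene lies next to TAP1, averaged 9.04 ± 0.453 CPM in shMEX3A and 5.67 ± 0.320 CPM in shCtrl (0.67, SE 0.088). The aminopeptidase NPEPPS rose by 0.38 (SE 0.030) and the endopeptidase NRDC by 0.15 (SE 0.030). The peptidase TPP2 changed by -0.39 (SE 0.034), THOP1, which destroys peptides in the cytosol, by -0.09 (SE 0.036) and the immunoproteasome subunit PSMB10, with 34.8% of its exon bases under other genes, by -0.17 (SE 0.073). The call of THOP1 was lost without shCtrl replicate 1, shMEX3A replicate 1 or shMEX3A replicate 3 (adjusted p = 0.0900, 0.0901 and 0.0953, edgeR), and that of PSMB10 without shCtrl replicate 1, shCtrl replicate 2 or shMEX3A replicate 1 (0.114, 0.0582 and 0.294). Both also lost it in edgeR with DESeq2 size factors (0.0510 and 0.0512), with the 1 CPM filter (0.0661 and 0.0534) and in DESeq2 (0.0791 and 0.118). With GC and length offsets THOP1 was at -0.33 and called.

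Of 20 transcription factors of class I genes 10 rose and 5 fell (median 0.12). NFKB1, the precursor of the p50 subunit of NF-kB, averaged 102 ± 1.27 CPM in shMEX3A and 62.0 ± 2.16 CPM in shCtrl (0.72, SE 0.037). STAT3 rose by 0.55 (SE 0.029) and IRF9, the DNA-binding part of the interferon-activated complex ISGF3, by 0.54 (SE 0.049). Exons of other genes cover 48.4% of the exon bases of IRF9. RFX5, a subunit of the complex that binds the X box, changed by -0.38 (SE 0.034), and ATF1 and CREB1, which bind CRE sites, by -0.67 (SE 0.075) and -0.31 (SE 0.052). IRF1, central to the interferon-gamma response and named after its value was seen, rose by 0.66 (SE 0.063), with 22% of its exon bases under other genes.

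Of 15 interferon receptors, kinases and brakes 8 rose and 4 fell (median 0.20). The subunits of the type I interferon receptor were called in opposite directions, but 83.3% of the exon bases of IFNAR2 lie under exons of other genes, so its reads cannot be told apart from theirs. IFNAR2 averaged 44.8 ± 0.234 CPM in shMEX3A and 22.4 ± 1.46 CPM in shCtrl (1.00, SE 0.050), and IFNAR1 40.8 ± 0.861 CPM in shMEX3A and 49.8 ± 1.53 CPM in shCtrl (-0.29, SE 0.042). The receptor kinase TYK2 rose by 0.38 (SE 0.034) and the phosphatase PTPN1 by 0.31 (SE 0.036), while the phosphatase PTPN2 changed by -0.51 (SE 0.071). IFNGR1, the ligand-binding chain of the interferon-gamma receptor, changed by -0.22 (SE 0.062). With GC and length offsets TYK2 was at 0.15, and IFNGR1 was at 0.01 and no longer called (adjusted p = 0.845).

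The listed interferon genes were nearly silent in these counts, and other interferon genes were not examined. Of 8 listed, 6 had no count in any library and IFNB1 had 1 count in shMEX3A replicate 2. IFNE, an interferon of the female reproductive tract, was the one tested, with 50, 33 and 26 counts in shMEX3A and 9, 13 and 3 counts in shCtrl (2.07, SE 0.386, adjusted p = 1.51e-05).

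Of 19 genes for removal and trafficking of class I molecules 18 were tested, with 10 higher and 4 lower (median 0.29). SEC24C, a cargo adaptor of COPII vesicles with 42.9% of its exon bases under other genes, rose by 0.58 (SE 0.030), and the ubiquitin ligase MARCHF8 by 0.55 (SE 0.037). TMEM127, which with SUSD6 and the ligase WWP2 sends class I molecules to lysosomes, averaged 145 ± 1.91 CPM in shMEX3A and 95.9 ± 1.58 CPM in shCtrl (0.60, SE 0.033). Named after their values were seen, its partners SUSD6 (0.98, SE 0.060) and WWP2 (0.56, SE 0.039) rose too. So did MARCHF4, a ligase that removes class I molecules from the surface, with 162, 154 and 108 counts in shMEX3A and 32, 7 and 12 counts in shCtrl (3.02, SE 0.267, adjusted p = 3.17e-09). MARCHF9 of the same list, also named after its value was seen, went the other way (-0.23, SE 0.057). A further 4 genes of the list were not called. The cargo receptor CNIH1 changed by -0.58 (SE 0.037), DERL1, a channel of the degradation pathway of the endoplasmic reticulum, by -0.25 (SE 0.036) and HM13 by -0.28 (SE 0.033). HM13 is the signal peptide peptidase that releases the leader peptides shown by HLA-E. Offsets for GC content and length put DERL1 at -0.17.

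**Figure D3:**
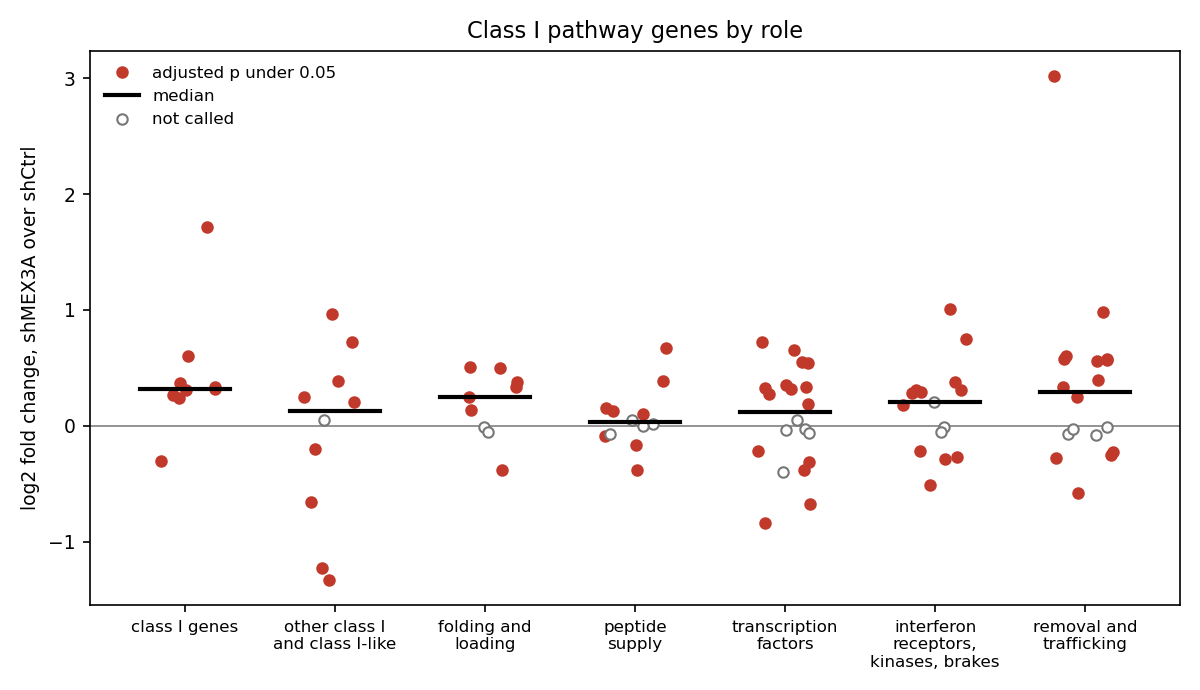
Log2 fold change of shMEX3A over shCtrl (y axis) for the 9 class I genes and for the tested genes of 6 lists grouped by role, where red points were called, open points were not and bars are medians. Most class I genes sit between 0.24 and 0.60 with TAPBP above and HLA-E below, while each of the other groups holds called genes on both sides of 0. The interferon gene list, with 1 tested gene, is not drawn.

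The other members of the MEX3 family were higher. MEX3C averaged 75.1 ± 1.97 CPM in shMEX3A and 58.1 ± 0.631 CPM in shCtrl (0.37, SE 0.037). MEX3D changed by 0.88 (SE 0.036) and MEX3B by 0.21 (SE 0.063). The call of MEX3B was lost without shCtrl replicate 3 (adjusted p = 0.0506, edgeR) and with GC and length offsets (0.09, adjusted p = 0.168).

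The genes that followed HLA-B most closely were sought by the root-mean-square difference of mean-centred log2 CPM over the 6 libraries, among 10086 genes with an average of at least 3 log2 CPM. They were the histone methyltransferase SETD1A (0.014), the signalling adaptor TRAF3 (0.0158), DHDDS, which builds dolichol (0.0169), HERPUD2 (0.0172) and QRICH1 (0.0191). With GC and length offsets SETD1A was at 0.08 in log2 fold change, against 0.32 without. The members came later, with TAP2 at rank 361, HLA-C at 398, TAP1 at 724, B2M at 765 and ERAP1 at 849. HLA-E ranked 7111 and TAPBP 9795.

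The nearest tested coding genes on each side of every member were examined after the members' values were seen. TAPBP had a larger change than either of its neighbours, a difference that was not tested. RGL2, 369 bases away, averaged 34.1 ± 1.63 CPM in shMEX3A and 31.6 ± 1.28 CPM in shCtrl (0.11, SE 0.050, adjusted p = 0.0451). ZBTB22, 18 bases from the GENCODE start of TAPBP, averaged 21.5 ± 0.776 CPM in shMEX3A and 12.2 ± 0.538 CPM in shCtrl (0.82, SE 0.063). That start is not the RefSeq start used for the TAPBP promoter. HLA-E lay between TRIM39, 145737 bases away (-0.59, SE 0.086), and GNL1, 47171 bases away (-0.14, SE 0.033). Both were also called lower in shMEX3A, as were 35.6% of all tested genes. ERAP1 overlaps CAST, which was not called (-0.04, adjusted p = 0.305, edgeR), and lies near its relative ERAP2 (0.38, SE 0.047). Next to B2M, SPG11 rose by 0.40 (SE 0.036) while TRIM69, at 0.983 ± 0.127 CPM in shMEX3A and 1.99 ± 0.163 CPM in shCtrl, changed by -1.02 (SE 0.1997).

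**Figure D4:**
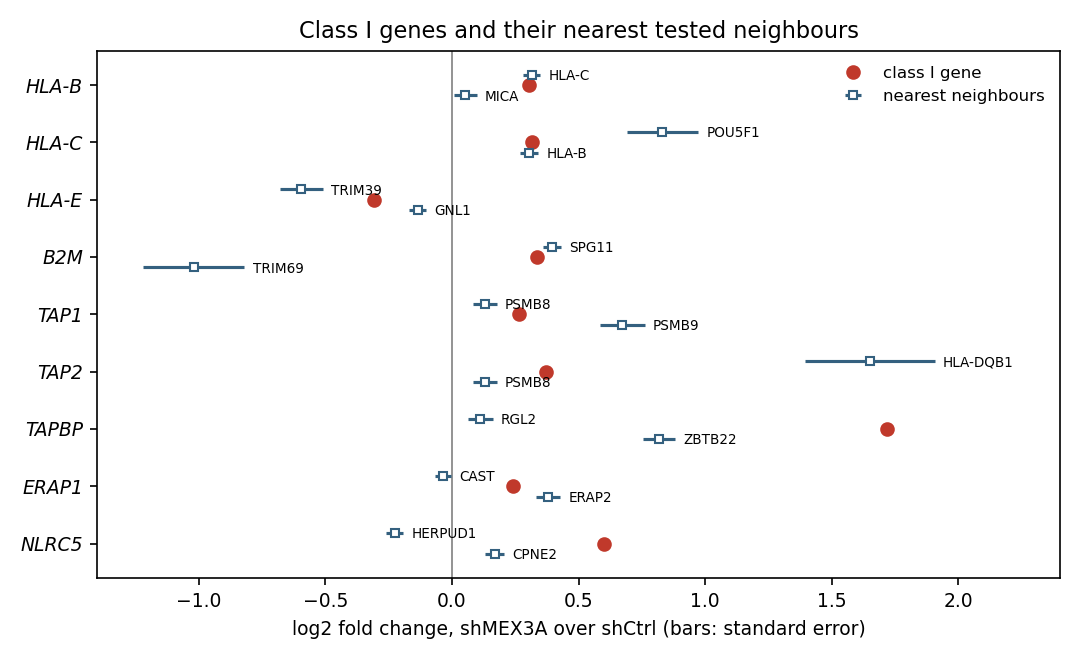
Log2 fold change of shMEX3A over shCtrl (x axis) for each class I gene (red) and its nearest tested coding gene on either side (blue squares, bars are standard errors). TAPBP at 1.72 lies to the right of both RGL2 (0.11) and ZBTB22 (0.82). The 2 neighbours of HLA-E, 145737 and 47171 bases away, were also lower.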

How the data were processed

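RNA from 6 libraries of TOV21G cells, 3 per arm, was prepared with a KAPA mRNA kit, per the labels' protocols. The authors deposited 1 table of raw read counts per gene, whole numbers throughout. The submitters' processing notes list GRCh38, HTSeq 2.0.4, STAR, fastp 0.20.0 and edgeR 4.0.16 without saying what each did. The sources used here do not give the STAR version, the annotation, the strand setting or the treatment of reads that fit several genes. Reads of overlapping genes therefore cannot be told apart, and similar HLA genes may share or lose reads.

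The test was edgeR 4.0.16 in R 4.3.3 (filterByExpr, TMM, robust quasi-likelihood fit with 4 residual degrees of freedom, common biological coefficient of variation 3.41%) over all 15679 kept genes. The SE was taken from the F statistic. Ratios were tested by exact permutation in scipy 1.17.1. Positions, transcript lengths, GC content and exon overlap came from GENCODE 29, and promoters from RefSeq. The expression tests were checked on simulated counts with far fewer changed genes than were called here. The permutation test was checked only on a fixed example. No library was a duplicate: the chi-square of pairs within an arm, divided by its degrees of freedom, ran from 2.69 to 6.14 for genes with 20 or more counts.

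The members and lists were chosen with earlier results of these data known. Besides members and the MEX3 family, the 3 called genes of each list with the smallest p in each direction are named, all tested genes where a list had 5 or fewer, and the 5 genes closest to HLA-B. Some genes under this rule are not reported here. Alternatives were upper-quartile factors, DESeq2 size factors, at least 1 CPM in 3 libraries, all genes with a count, DESeq2 1.42.0, limma voom (limma 3.58.1), the replicate number as a block, GC and length offsets (natural splines with 5 degrees of freedom) and each library left out.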

Additional observations from a re-analysis of the deposited data

How the results depend on the processing

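The 9 members kept their direction and their call in all 135 values under the alternatives, 8 higher and 1 lower each time. MEX3A ranged from -1.83 to -1.68 in log2 fold change. Of 794 values for genes under the naming rule 779 stayed on the same side of the threshold, and 14 calls were lost (THOP1 and PSMB10 6 each, MEX3B 2). IFNGR1 alone reversed, at 0.0134 with GC and length offsets, and the cause was not tested. With 1 library left out, 42 to 46 pathway genes were higher and 16 to 21 lower, and 10411 to 10811 genes were called. Under the same omissions the log2 difference ranged from -0.0773 to 0.0247 for HLA-B over B2M, from -0.0500 to 0.0130 for HLA-C over B2M and from -0.0492 to 0.0429 for HLA-B over HLA-C, so these have no stable sign. The other 7 ratios kept their sign under these omissions, but their size moved, from -0.130 to -0.0113 for TAP1 over B2M, from 0.00534 to 0.0567 for TAP2 over B2M, from -0.187 to -0.0591 for TAP1 over TAP2, from -0.125 to -0.0638 for ERAP1 over B2M and from 0.208 to 0.362 for NLRC5 over B2M. It ranged from -0.681 to -0.606 for HLA-E and from 1.34 to 1.46 for TAPBP over B2M. A pseudocount of 1 CPM reversed none. With GC and length offsets, an alternative for ratios chosen after seeing the data, TAP2 over B2M (-0.265), NLRC5 over B2M (-0.217) and HLA-B over HLA-C (0.0102) reversed. No pairing by replicate number was seen, since deviations of same-numbered libraries correlated at -0.031, 0.077 and -0.077. With the replicate block the calls were 5247 higher and 5504 lower, and the members gave 8 higher and 1 lower. With GC and length offsets 10475 genes were called, against 10347 on the same genes without offsets, a setting chosen after seeing the data. The 5 genes closest to HLA-B were the same 5 with a prior count of 0.5. Low counts limit the precision for NLRC5, IFNE and MARCHF4.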
